A study of Mus musculus with 66 samples.

Results

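Hippocampal RNA collected 3 months after an injection of control brain extract was set against RNA collected 1 month after it, across all genes. The libraries were chosen by their labels alone: control injected, 3 months old, hippocampus, and 3 or 1 months post injection (mpi). They number 10 of the 66 libraries in the series, with 5 at 3 mpi and 5 at 1 mpi. The series used mice of the inbred strain C57BL/6 that had been injected with extract of Alzheimer's disease (AD) or control brains, labelled as 3 or 12 months old and sampled at 1, 3 and 5 mpi. Its title concerns seeded tauopathy. Tauopathies are diseases in which the protein tau aggregates, and in the seeded model an injected extract starts aggregation of the host's own tau. Every library compared here had received control extract, so the groups share the injection and differ in the time since it. The question the contrast can address is which transcripts differ between an early and a later time after the injection itself, without AD material. The labels do not say whether the stated age is that at injection or at collection, so the groups may also differ in age at collection. They give neither the hour of collection nor the source of the control extract, and they do not state that each library is a separate animal. The p-values below therefore measure spread between libraries. In the main test that spread was taken from all 29 libraries labelled as 3 months old, with AD and 5 mpi groups included.

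Between 44934335 and 51874742 reads were assigned to genes per library at 3 mpi, and between 44948800 and 48721810 at 1 mpi (exact permutation test of the group means, two-sided, p = 0.635; the smallest p that 5 against 5 libraries allow is 0.00794). Levels are given as deposited, as reads per gene on an RPM scale adjusted by 1 factor per library (scaled reads), which compares libraries and not genes of unequal length. Fold changes are log2 differences of (level + 1), 3 mpi over 1 mpi, which understates the change of low genes. All 9 hippocampal markers checked, such as Prox1 of dentate granule cells, Wfs1 and Fibcd1 of CA1 and Slc17a7 of glutamatergic neurons, were above 1 in all 10 libraries. Libraries stood apart in several ways. The mean log2 level of a meningeal fibroblast list ran from 2.75 to 4.68 at 3 mpi, lowest in library 4. At 1 mpi it ran from 2.95 to 4.48, lowest in library 3. That of a thalamus and habenula list ran from 3.09 to 4.41 at 1 mpi, highest in library 4. One library in each group (3 mpi library 3 and 1 mpi library 2) had high Xist, the RNA of the inactive X chromosome, and nearly no Ddx3y, a Y-linked gene, and the other 8 had the reverse. Libraries 1 and 3 of the 1 mpi group had high levels of Inhba and of other late activity-regulated genes, and what changed when both were left out is given beside the results below. Immediate early genes did not set library 3 apart, with a mean log2 level of 4.21 in a group range of 3.99 to 4.73. In bulk tissue, fewer cells of a type and less RNA per cell cannot be told apart.

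Of 19976 genes tested, 359 passed an adjusted p of 0.05 (1.80%, limma), 219 higher at 3 mpi (1.10%) and 140 lower (0.701%). The changes were mostly small: the median size was 0.27 for genes that rose and 0.38 for genes that fell on the log2 scale, and 5 and 8 of them reached 1. All 5 libraries of one group lay beyond all 5 of the other for 175 of the genes that rose and 92 of those that fell. Among all genes tested, such a gap between the groups was found for 562 (2.81%) with 3 mpi higher and for 339 (1.70%) with 3 mpi lower, the background for each gene below said not to overlap. Protein-coding genes made up 197 of the genes that rose and 116 of those that fell, among 15605 tested, while pseudogenes made up 2 and 14 among 1032 tested. Before adjustment 3623 genes had a p below 0.05, beside 998.8 expected by chance. How many passed depended on single libraries and on the fit. The count was 84 without 1 mpi library 3, 98 without 3 mpi library 2, 105 without 1 mpi library 1, and 127, 130 and 148 without 3 mpi libraries 3, 5 and 1. It was 212 without 1 mpi library 4 and 264 without 3 mpi library 4, but 505 without 1 mpi library 5 and 739 without 1 mpi library 2. It was 33 when only the 10 libraries entered the fit, in place of all 29 of the cohort, and 30 without 1 mpi libraries 1 and 3 together, 25 of them among the 359. Leaving out that pair also makes the 1 mpi group smaller, which by itself loses calls. No other pair of 1 mpi libraries was left out for comparison. A call lost in that fit, here or below, is thus not shown to rest on those 2 libraries. The split of 219 higher and 140 lower was 133 and 157 with relative log expression scaling and 57 and 128 with upper-quartile scaling. On recovered reads, where the test and its input change as well, edgeR gave 126 and 190 and DESeq2 370 and 531. In all, 62 genes (38 higher, 24 lower) passed in each of the 10 fits that left out 1 library.

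Of the 45 gene lists described, the circadian clock had the largest share of called members. In mammalian cells the activators CLOCK and BMAL1, the product of Arntl, bind E-boxes (CACGTG) and drive the genes of their own repressors, the PER and CRY proteins, and of Nr1d1, Nr1d2, Ciart and Dbp. The proteins of Nr1d1 and Nr1d2, REV-ERB alpha and beta, repress Arntl and Nfil3 through ROR elements (GTAGGTCA). DBP activates and NFIL3 represses genes through D-boxes (TTATGTAA), and in brain tissue outside the central pacemaker many of these transcripts cycle over the day.

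Promoter windows of 5 of these genes are shown, chosen because they carry an element through which the loop is known to run. They span 250 bases before to 50 after a RefSeq start (GRCm38.p6), are written on the gene's strand, and carry the element searched, on either strand, in capitals. Ciart at chr3:95882179-95882478 (minus strand) has 3 E-boxes, and Per1 at chr11:69098699-69098998 (plus strand), a start that lies inside the annotated gene, has 1. Per3 at chr4:151044616-151044915 (minus strand) has 2 D-boxes, and Arntl at chr7:113207261-113207560 (plus strand) and Nfil3 at chr13:52980990-52981289 (minus strand) have 1 ROR element each.
Ciart: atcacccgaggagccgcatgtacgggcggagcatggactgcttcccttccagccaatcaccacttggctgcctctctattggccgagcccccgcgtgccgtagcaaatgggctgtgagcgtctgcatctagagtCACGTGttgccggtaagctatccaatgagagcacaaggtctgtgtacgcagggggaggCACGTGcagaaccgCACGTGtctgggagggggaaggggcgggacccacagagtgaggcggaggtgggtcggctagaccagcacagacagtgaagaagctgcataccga
Per1: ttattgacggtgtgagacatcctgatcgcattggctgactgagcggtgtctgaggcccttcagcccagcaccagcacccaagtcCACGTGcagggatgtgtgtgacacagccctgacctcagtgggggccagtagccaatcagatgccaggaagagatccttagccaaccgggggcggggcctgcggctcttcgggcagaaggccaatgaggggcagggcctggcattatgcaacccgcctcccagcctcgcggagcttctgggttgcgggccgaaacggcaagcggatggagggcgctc
Per3: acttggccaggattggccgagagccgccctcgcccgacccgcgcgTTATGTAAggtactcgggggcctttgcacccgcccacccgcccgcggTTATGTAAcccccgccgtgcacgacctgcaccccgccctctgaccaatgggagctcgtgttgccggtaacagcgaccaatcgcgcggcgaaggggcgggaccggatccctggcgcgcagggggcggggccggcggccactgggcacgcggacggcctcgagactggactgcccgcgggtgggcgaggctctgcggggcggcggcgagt
Arntl: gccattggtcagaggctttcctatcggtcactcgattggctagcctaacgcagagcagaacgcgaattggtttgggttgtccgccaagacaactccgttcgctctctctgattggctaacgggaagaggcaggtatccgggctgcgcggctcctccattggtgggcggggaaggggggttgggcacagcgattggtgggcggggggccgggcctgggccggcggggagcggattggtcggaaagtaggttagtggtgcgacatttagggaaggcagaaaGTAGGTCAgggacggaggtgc
Nfil3: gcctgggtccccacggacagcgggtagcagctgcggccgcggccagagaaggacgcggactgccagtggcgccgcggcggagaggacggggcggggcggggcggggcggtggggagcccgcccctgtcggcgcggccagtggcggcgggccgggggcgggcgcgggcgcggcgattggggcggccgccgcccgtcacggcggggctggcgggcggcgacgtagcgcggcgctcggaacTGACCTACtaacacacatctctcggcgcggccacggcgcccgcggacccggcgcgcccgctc
Of 18 clock genes, 15 had a window in the RefSeq table, and an E-box was found for 5, a D-box for 1 and a ROR element for 2. The genes with an E-box were Per1, Cry1, Tef, Ciart and Bhlhe41. No window of Dbp, Nr1d1, Nr1d2, Cry2 or Clock held any of these elements. Over all 32851 promoter windows the shares were 7.15% for the E-box, 0.938% for the D-box and 0.621% for the ROR element. These are shares of single windows, whereas a gene was counted if any of its windows matched. These matches describe letters in the window and are no measure of binding.

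Of the 18 clock genes tested, 7 rose and 3 fell at 3 mpi, against 1.80% of all genes, with a median log2 fold change of 0.29 beside 0.01 for all genes. Dbp, the PAR-domain activator of D-box genes (chromosome 7, 45705088 to 45710203), had levels of 58.0, 63.6, 67.3, 47.4 and 57.0 in the 3 mpi libraries and 16.8, 20.6, 8.28, 21.7 and 32.1 in the 1 mpi libraries. The lowest 3 mpi library was above the highest 1 mpi library, and the log2 fold change of 1.62 (SE 0.20, adjusted p = 5.02e-05) was the highest of all named genes. Ciart, a repressor of CLOCK and BMAL1 (chromosome 3, 95878503 to 95882251), had 10.6, 10.7, 11.4, 8.53 and 10.3 at 3 mpi and 2.89, 3.60, 2.89, 3.55 and 4.75 at 1 mpi. Its groups did not overlap either (log2 fold change 1.33, SE 0.11, adjusted p = 7.51e-08).

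The period genes, whose proteins form the repressor complex, moved unequally. Per1 had 66.5, 69.0, 65.3, 55.9 and 55.5 at 3 mpi and 40.7, 36.3, 25.8, 45.5 and 47.5 at 1 mpi, without overlap (log2 fold change 0.68, SE 0.13, adjusted p = 0.0110). Per3 had 42.6, 35.3, 41.8, 34.7 and 41.1 at 3 mpi and 20.8, 25.5, 12.3, 29.5 and 29.8 at 1 mpi (0.76, SE 0.17, adjusted p = 0.0266). Per2 had 36.5, 36.1, 36.0, 33.1 and 34.7 at 3 mpi and 44.8, 32.6, 36.1, 24.9 and 29.8 at 1 mpi, so its groups overlapped (0.09, SE 0.13, adjusted p = 0.755). Cry2, a cryptochrome repressor, rose by 0.29 (SE 0.065, adjusted p = 0.0233), with 117.2 to 127.8 at 3 mpi and 88.8 to 105.7 at 1 mpi.

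The REV-ERB genes rose and 3 genes with the opposite sign fell. Nr1d2 had 142.3, 131.4, 143.2, 134.2 and 131.8 at 3 mpi and 78.2, 91.4, 59.0, 90.9 and 116.3 at 1 mpi (log2 fold change 0.67, SE 0.11, adjusted p = 0.00291). Nr1d1 had 76.4, 85.8, 73.4, 60.4 and 71.3 at 3 mpi and 40.1, 51.3, 34.1, 47.8 and 60.7 at 1 mpi (0.66, SE 0.11, adjusted p = 0.00515), and 3 mpi library 4 lay just under 1 mpi library 5. Arntl, the partner of CLOCK, had 28.1, 27.8, 24.0, 29.7 and 29.3 at 3 mpi and 36.5, 36.8, 43.7, 34.9 and 31.7 at 1 mpi. All 3 mpi libraries were below all 1 mpi libraries (-0.39, SE 0.072, adjusted p = 0.00764). Clock had 100.3 to 126.3 at 3 mpi and 129.0 to 156.9 at 1 mpi (-0.28, SE 0.064, adjusted p = 0.0261), and Nfil3, the repressor at D-boxes, had 6.26 to 8.42 at 3 mpi and 8.70 to 13.1 at 1 mpi (-0.46, SE 0.12, adjusted p = 0.0496). Outside the list and chosen after its values were seen, Usp2, a deubiquitinase gene driven by the clock, rose by 0.48 (SE 0.081, adjusted p = 0.00320).

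**Figure D1:**
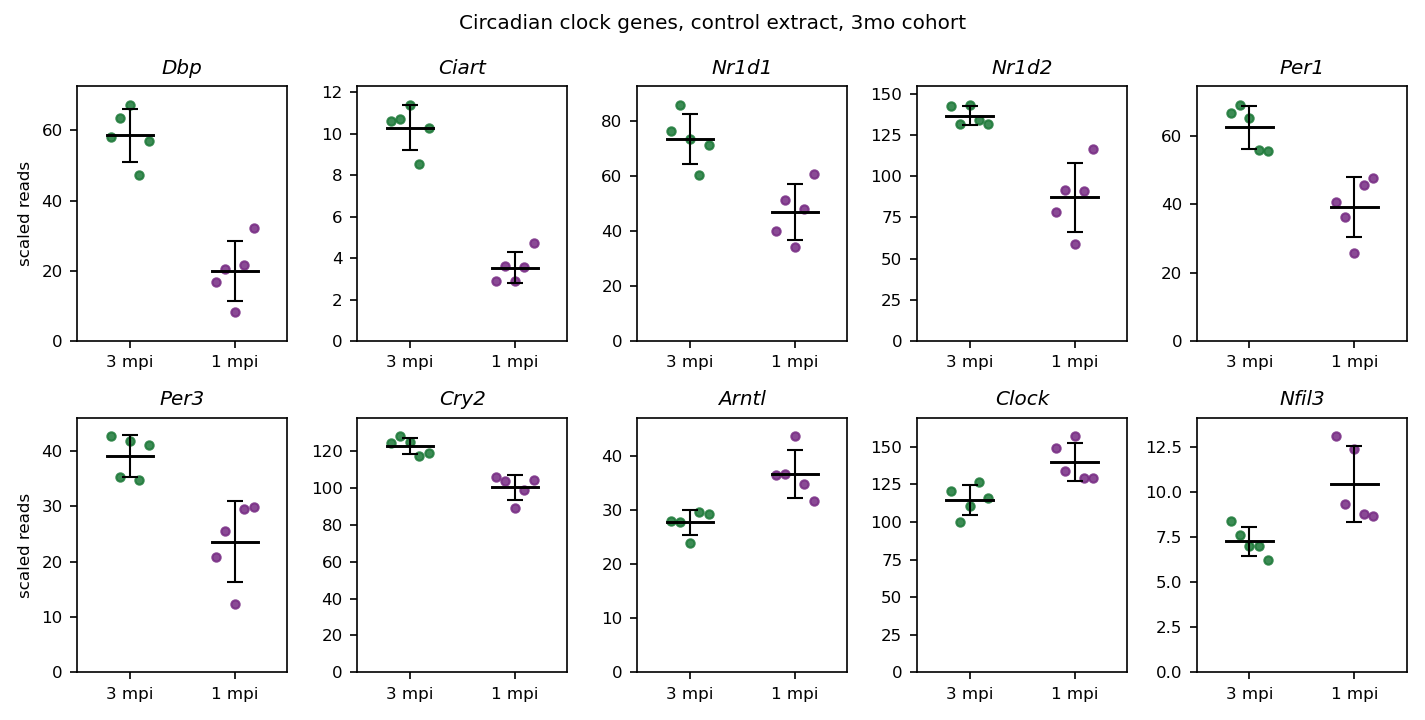
Levels of the 10 clock genes past the threshold, in scaled reads on linear axes from 0, for the 5 libraries at 3 mpi (left, green) and the 5 at 1 mpi (right, purple), with bars for the mean and SD. Dbp, Ciart, Nr1d1, Nr1d2, Per1, Per3 and Cry2 were higher at 3 mpi and Arntl, Clock and Nfil3 lower, and the groups overlap for Nr1d1 alone.

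Among the 1 mpi libraries, library 3 had the lowest Dbp, Nr1d1, Nr1d2, Per1, Per3 and Cry2 and the highest Arntl and Clock. Library 5 had the highest Dbp, Ciart, Nr1d1, Nr1d2, Per1 and Per3 and the lowest Arntl. The clock list had 5 genes higher and 1 lower without 1 mpi library 3, as without 3 mpi library 3 (limma). It had 7 higher and 3 lower without 1 mpi library 5, as with all libraries, and 2 and 0 with the compared groups alone. Dbp, Ciart, Nr1d1, Nr1d2, Per1, Arntl and Usp2 passed in all 10 fits that left out 1 library, while Cry2 passed in 6, Per3 and Clock in 5 and Nfil3 in 3. Without 1 mpi libraries 1 and 3, 4 clock genes rose (Dbp, Ciart, Nr1d2 and Bhlhe40, a repressor gene at 0.29 with adjusted p = 0.0654 when all libraries were used) and 0 fell (limma), and the list's median was 0.24. Nr1d1, Per1 and Arntl then stood at 0.45, 0.53 and -0.30 and did not pass (adjusted p = 0.108, 0.113 and 0.108). Dbp and Ciart passed under all 25 alternatives, with log2 fold changes of 1.23 to 1.81 and of 1.19 to 1.54.

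Transcripts that respond to temperature and to protein folding moved with opposite signs. Cirbp and Rbm3 encode cold-inducible RNA-binding proteins, and both rose. Cirbp had 58.2, 57.4, 53.9, 60.4 and 57.9 at 3 mpi and 29.6, 40.0, 26.7, 35.5 and 38.2 at 1 mpi, so all 3 mpi libraries exceeded all 1 mpi libraries (log2 fold change 0.76, SE 0.15, adjusted p = 0.0112). Rbm3, on the X chromosome, had 116.2, 106.6, 100.4, 100.9 and 108.2 at 3 mpi and 65.2, 55.4, 65.4, 60.1 and 61.6 at 1 mpi (0.78, SE 0.19, adjusted p = 0.0388). The Rbm3 groups did not overlap, yet its call was lost in 8 of the 10 fits that left out 1 library (adjusted p up to 0.0913), with log2 fold changes of 0.74 to 0.80. Its spread among the AD libraries of the cohort, which share the fit, was wider, with an SD of 26.2 at 3 mpi and 12.9 at 1 mpi, against 6.41 and 4.14 in the control libraries. Cirbp passed in all 10 of those fits, but without 1 mpi libraries 1 and 3 together neither gene passed, with Cirbp at 0.59 (adjusted p = 0.170) and Rbm3 at 0.84 (adjusted p = 0.163).

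Several chaperone genes of the cytosol and the endoplasmic reticulum fell. Of 14 heat shock genes, 13 had negative values (median -0.18) and 2 fell, against 0.701% of all genes, while edgeR called 3 lower and DESeq2 6. Hsph1, an HSP110 nucleotide exchange factor, had 295.5, 311.2, 300.0, 337.7 and 296.9 at 3 mpi and 580.4, 396.9, 568.1, 400.3 and 356.1 at 1 mpi (log2 fold change -0.55, SE 0.11, adjusted p = 0.0138). Chordc1, an HSP90 co-chaperone, had 84.1, 89.0, 85, 91.5 and 89.6 at 3 mpi and 120.8, 116.1, 129.6, 105.8 and 107.9 at 1 mpi (-0.39, SE 0.071, adjusted p = 0.00657). Neither overlapped, and 1 mpi libraries 1 and 3 were the highest for both. Chordc1 passed in all 10 fits that left out 1 library, and Hsph1 in all but those without 1 mpi library 1 or 3. Hspa8, the constitutive HSP70, stood at -0.25 (adjusted p = 0.0708) without overlap between groups. The promoter windows of Hsph1 (chr5:149636287-149636586, minus strand) and Chordc1 (chr9:18292017-18292316, plus strand) are shown for the inverted repeat GAANNTTC of heat shock elements, in capitals.
Hsph1: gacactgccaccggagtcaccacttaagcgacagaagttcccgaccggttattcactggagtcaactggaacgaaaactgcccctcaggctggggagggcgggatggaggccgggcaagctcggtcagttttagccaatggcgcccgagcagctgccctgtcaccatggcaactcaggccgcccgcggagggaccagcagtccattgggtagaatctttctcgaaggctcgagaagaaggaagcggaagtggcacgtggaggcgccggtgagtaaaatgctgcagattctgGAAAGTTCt
Chordc1: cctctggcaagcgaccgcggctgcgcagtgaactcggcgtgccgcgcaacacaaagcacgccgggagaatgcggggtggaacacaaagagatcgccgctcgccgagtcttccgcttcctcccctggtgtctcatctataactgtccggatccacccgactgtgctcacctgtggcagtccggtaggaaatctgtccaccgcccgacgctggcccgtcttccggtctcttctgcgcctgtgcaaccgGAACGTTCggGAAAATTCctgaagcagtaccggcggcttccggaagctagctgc
Of the 14 genes, 11 had a window and 9 held this letter pattern, which reads the same on both strands, against 7.86% of all windows. A gene was counted if any of its windows matched, and the 7.86% is a share of single windows, so the measures are unlike.

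Of 18 genes of the unfolded protein response, 3 fell, against 0.701% of all genes, and 12 had negative values in all (median -0.24). The same 3 were lower with edgeR, and DESeq2 called 7 lower and 1 higher. Hspa5, the chaperone BiP of the endoplasmic reticulum, had 260.8, 255.7, 301.1, 245.6 and 278.2 at 3 mpi and 502.6, 402.3, 451.6, 353.1 and 350.1 at 1 mpi (log2 fold change -0.61, SE 0.14, adjusted p = 0.0326). Hsp90b1, its HSP90 partner GRP94, fell by 0.34 (SE 0.086, adjusted p = 0.0427), and Calr, the lectin chaperone calreticulin, fell by 0.37 (SE 0.097, adjusted p = 0.0473). All 3 were lower in every 3 mpi library than in any 1 mpi library. Their adjusted p lay near the threshold, and they passed in 4, 3 and 2 of the 10 fits that left out 1 library (adjusted p up to 0.105, 0.134 and 0.145). Without 1 mpi libraries 1 and 3, neither the heat shock list nor this one had a called member (limma), with medians of -0.10 and -0.15.

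The 12 genes that fell most include Inhba, Bmp3, Acvr1c, Penk and Sstr2, and several were high in some 1 mpi libraries and not in others. Activins, dimers of the Inhba product, signal through activin receptors, and neurons make Inhba after strong activity. Inhba had 9.32, 8.16, 7.42, 9.89 and 7.70 at 3 mpi and 95.1, 15.1, 84.1, 12.8 and 14.1 at 1 mpi. All 3 mpi libraries were lower than all 1 mpi libraries, but libraries 1 and 3 carried most of the difference (log2 fold change -1.70, SE 0.45, adjusted p = 0.0459). Without those 2 libraries it stood at -0.66 (adjusted p = 0.476). Bmp3, a TGF-beta family ligand, had 6.92, 7.97, 8.29, 6.79 and 6.58 at 3 mpi and 36.0, 6.51, 73.3, 26.0 and 26.6 at 1 mpi. Library 2 of 1 mpi lay below all 3 mpi libraries and the other 4 above them (-1.72, SE 0.42, adjusted p = 0.0377).

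Acvr1c, which encodes the type I receptor ALK7, had 29.2, 25.8, 25.9, 34.5 and 31.1 at 3 mpi and 111.4, 29.7, 112.3, 61.8 and 46.2 at 1 mpi (log2 fold change -1.11, SE 0.27, adjusted p = 0.0388). Penk, the precursor of enkephalins, had 20.5, 25.2, 23.1, 21.5 and 21.5 at 3 mpi and 102.0, 16.6, 65.6, 61.3 and 40.8 at 1 mpi (-1.10, SE 0.28, adjusted p = 0.0428). In both genes 1 mpi library 2 lay within or below the 3 mpi range and libraries 1 and 3 were the highest. Sstr2, a somatostatin receptor, had 6.77, 7.68, 7.12, 5.28 and 5.97 at 3 mpi and 46.7, 8.32, 18, 10.4 and 9.25 at 1 mpi, where library 1 stood alone (-1.07, SE 0.27, adjusted p = 0.0425). The same library was the highest in Blnk, a B-cell adaptor (-1.10), Plpp4, a phospholipid phosphatase (-1.0), and Pim1, a serine/threonine kinase (-0.85), and library 4 in Lrrc55, an auxiliary subunit of BK channels (-0.92). Adamts18, a secreted metalloprotease, was low throughout, at 0.488 to 0.882 at 3 mpi and 1.15 to 6.51 at 1 mpi (-0.97, SE 0.20, adjusted p = 0.0140). Of these, Pim1 and Adamts18 passed in all 10 fits that left out 1 library, Lrrc55 in 5, Plpp4 in 4, Inhba, Acvr1c and Sstr2 in 3, and Bmp3, Penk and Blnk in 2. None of the 10 passed without 1 mpi libraries 1 and 3.

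**Figure D2:**
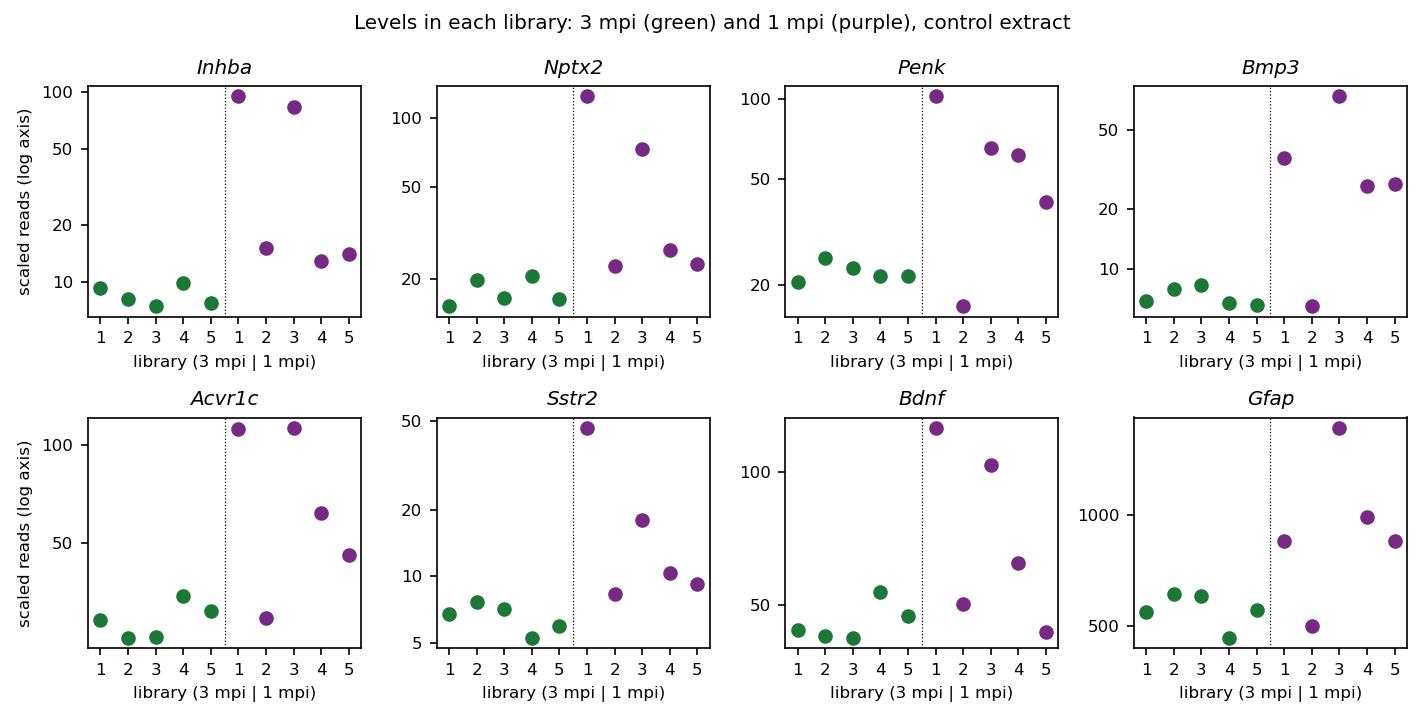
Levels of 8 genes in each library, in scaled reads on logarithmic axes, with the 5 libraries at 3 mpi left of the dotted line (green) and the 5 at 1 mpi right of it (purple). Libraries 1 and 3 of 1 mpi are the highest in Inhba, Nptx2, Bdnf, Penk and Acvr1c, library 1 alone in Sstr2, and library 3 in Bmp3 and Gfap.

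The wider list of late activity-regulated genes had 3 of 34 members lower (Penk, Inhba and Rgs4) and 0 higher (limma), against 0.701% and 1.10% of all genes, with a median of -0.30. With edgeR 4 were lower, and with DESeq2 8 were lower and 1 higher. Rgs4, a regulator of G-protein signalling, fell by 0.54 (SE 0.14, adjusted p = 0.0494) and passed in 2 of the 10 fits that left out 1 library. Nptx2, a secreted pentraxin at excitatory synapses, had 15.2, 19.8, 16.6, 20.5 and 16.4 at 3 mpi and 123.5, 22.8, 72.9, 26.6 and 23.3 at 1 mpi (-1.21, adjusted p = 0.0697). Bdnf, the neurotrophin, had 42.0 to 53.5 at 3 mpi and 43.2 to 126.1 at 1 mpi (-0.62, adjusted p = 0.112). The list had 0 called members (limma) without 1 mpi library 1, 1 mpi library 3 or any 1 of the 3 mpi libraries, and without 1 mpi libraries 1 and 3 together its median was -0.05. The immediate early genes, which neurons switch on first, had 1 of 24 higher and 1 lower, with a median of 0.11. Nr4a1, an orphan nuclear receptor, rose by 0.66 (SE 0.18, adjusted p = 0.0487) with 28.8 to 58.6 at 3 mpi and 19.2 to 39.9 at 1 mpi. Ier5, a serum- and stress-induced gene, fell by 0.81 (SE 0.21, adjusted p = 0.0452) with 27.2 to 35.5 at 3 mpi and 33.0 to 123.5 at 1 mpi. Both calls were lost in most of the fits that left out 1 library, and without 1 mpi libraries 1 and 3 the list had 0 calls (limma) and a median of 0.24. Fos and Arc, the classical activity markers, had log2 fold changes of 0.01 (adjusted p = 0.983) and 0.16 (adjusted p = 0.797).

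Markers of reactive glia had mostly negative values, and how many passed the threshold depended on the fit. Of 27 genes of the list of reactive astrocytes, 25 had negative values (median -0.53). With limma 2 fell, against 0.701% of all genes, while edgeR called 4 lower and DESeq2 10. The count was 9 without 1 mpi library 2, 1 without 1 mpi library 4 or without 3 mpi library 1 or 5, and 0 without 1 mpi library 1 or 3 or without 3 mpi library 2, 3 or 4. Serpina3n, which encodes a secreted serpin and is a marker of astrocyte reactivity, had 60.1, 66.6, 58.4, 69.5 and 63.6 at 3 mpi and 134.2, 68.3, 197.4, 127.5 and 115.0 at 1 mpi. Library 2 of 1 mpi fell within the 3 mpi range and the other 4 above it (log2 fold change -0.93, SE 0.24, adjusted p = 0.0425). Ggta1, which makes the alpha-galactose epitope on glycans, fell by 0.53 (SE 0.12, adjusted p = 0.0287). Gfap, the intermediate filament of astrocytes, had 547.2, 610.7, 602.7, 465.9 and 554.9 at 3 mpi and 851.8, 500.7, 1711.6, 988.5 and 849.9 at 1 mpi (-0.71, adjusted p = 0.102). The summed level of the list ran from 773.0 to 1025.5 at 3 mpi and from 831.3 to 2398.4 at 1 mpi. Serpina3n passed in 2 and Ggta1 in 5 of the 10 fits that left out 1 library, and neither passed without 1 mpi libraries 1 and 3, where the median was -0.27. Those 2 libraries were also the highest in Inhba, and the part of that difference in this result was not tested beyond leaving them out.

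Genes of the interferon response had 29 of 30 negative values (median -0.38). With limma 1 member fell, against 0.701% of all genes, while edgeR called 2 lower and DESeq2 7. The count was 8 without 1 mpi library 2 and 0 with the compared groups alone, without 1 mpi library 1, 3 or 5 and without 3 mpi library 2, 3, 4 or 5. Rsad2, the antiviral enzyme viperin, had 2.89, 1.87, 2.66, 1.70 and 2.21 at 3 mpi and 4.87, 3.23, 4.44, 3.77 and 6.76 at 1 mpi, without overlap (log2 fold change -0.76, SE 0.19, adjusted p = 0.0390). It passed in 3 of the 10 fits that left out 1 library (adjusted p up to 0.108), and without 1 mpi libraries 1 and 3 it stood at -0.74 (adjusted p = 0.216). Isg15, a ubiquitin-like modifier, stood at -0.57 (adjusted p = 0.0653) and Cxcl10, a T-cell chemokine, at -1.03 (adjusted p = 0.0722). Of 17 antigen presentation genes, 15 had negative values (median -0.31), and of 14 complement genes 12 (median -0.20), with 0 calls in either (limma). C3, the central complement component, ranged from 4.35 to 10.3 at 3 mpi and from 7.44 to 31.5 at 1 mpi (-0.86, adjusted p = 0.307), and C4b stood at -0.34 (adjusted p = 0.326). Without 1 mpi libraries 1 and 3 none of these 3 lists had a called member (limma), with medians of -0.30 for interferon response, -0.21 for antigen presentation and -0.16 for complement.

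No microglial marker passed with limma on all libraries or with edgeR. DESeq2 called Clec7a lower and Csf1, a growth factor of microglia, higher, and limma called Gpnmb, a lysosomal glycoprotein, lower without 1 mpi library 2 and Csf1 higher without 1 mpi library 5 and with the replicate number as a block. The homeostatic list had 15 of 16 negative values with a median of -0.13, and the disease-associated list 22 of 28 with a median of -0.19. Clec7a, a pattern receptor, had a log2 fold change of -0.85 (adjusted p = 0.0964), Cst7, a cystatin of activated microglia, -0.46 (adjusted p = 0.264), and Cd68, of phagocyte lysosomes, -0.30 (adjusted p = 0.316). Over the same interval after AD extract, Clec7a fell by 1.11 (adjusted p = 0.0482) and Cst7 by 0.99 (adjusted p = 0.0234), and the differences between the extracts, 0.26 and 0.54, did not pass (adjusted p = 0.955 and 0.912). Aif1, the calcium-binding protein IBA1, stood at -0.22 (adjusted p = 0.238), Trem2, a lipid-sensing receptor, at -0.05 (adjusted p = 0.858) and Apoe, the main brain apolipoprotein, at -0.03 (adjusted p = 0.901). The medians of the lists without 1 mpi libraries 1 and 3 were -0.12 (homeostatic microglia) and -0.13 (disease-associated microglia), with 0 calls (limma). A p that misses the threshold does not show that these levels were alike.

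Several genes of cell division and 1 of the oligodendrocyte precursor list fell. The adult dentate gyrus keeps dividing neural progenitors, and dividing oligodendrocyte precursors and microglia add to the same transcripts in bulk tissue. Of 21 cell division genes, 20 had negative values (median -0.14) and 4 fell, against 0.701% of all genes. Mki67, the proliferation antigen, had 1.43, 1.29, 1.55, 1.25 and 1.29 at 3 mpi and 1.92, 1.56, 2.65, 3.19 and 3.43 at 1 mpi, without overlap (log2 fold change -0.56, SE 0.11, adjusted p = 0.0119). Kif20a, a kinesin of cytokinesis, had 0.297 to 0.635 at 3 mpi and 0.679 to 1.25 at 1 mpi (-0.45, SE 0.085, adjusted p = 0.0105). Rrm2, the ribonucleotide reductase subunit of S phase, fell by 0.38 (SE 0.082, adjusted p = 0.0194), with 1.26 to 1.63 at 3 mpi and 2.08 to 2.23 at 1 mpi. Top2a, a topoisomerase of dividing cells, fell by 0.51 (SE 0.13, adjusted p = 0.0444). Mki67 and Kif20a passed in all 10 fits that left out 1 library, Rrm2 in 6 and Top2a in 1. With the compared groups alone none of the 4 passed. Without 1 mpi libraries 1 and 3, Mki67, Kif20a and Kif11, a mitotic kinesin not called with all libraries, fell, and Rrm2 and Top2a did not pass (limma).

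Among markers of immature neurons, 1 of 17 rose and 1 fell, against 1.10% and 0.701% of all genes, and the median was -0.07. Dpysl3, a collapsin response mediator of growing neurites, fell by 0.27 (SE 0.061, adjusted p = 0.0221), with 67.6 to 75.1 at 3 mpi and 73.8 to 92.3 at 1 mpi. Dlx2, a transcription factor of interneuron precursors, rose by 0.44 (SE 0.11, adjusted p = 0.0402), with 2.72 to 5.28 at 3 mpi and 2.07 to 2.76 at 1 mpi. Dpysl3 passed in 5 and Dlx2 in 4 of the 10 fits that left out 1 library, and without 1 mpi libraries 1 and 3 neither passed (-0.22 and 0.36, adjusted p = 0.223 and 0.292). Of this list edgeR called 1 higher and 3 lower, and DESeq2 2 higher and 6 lower. Dcx, the doublecortin of migrating neuroblasts, had 20 to 22.2 at 3 mpi and 23.8 to 33.0 at 1 mpi without overlap (-0.37, adjusted p = 0.0994). Sox11, also of immature neurons, had 12.5 to 15.4 at 3 mpi and 59.5, 16.7, 39.4, 18.4 and 15.4 at 1 mpi (-0.86, adjusted p = 0.0634), with libraries 1 and 3 again the highest. Gpr17, a receptor of committed oligodendrocyte precursors, had 42.9, 46.3, 46.8, 44.4 and 39.2 at 3 mpi and 61.3, 55.0, 52.7, 58.9 and 76.3 at 1 mpi. Every 3 mpi library was below every 1 mpi library (-0.45, SE 0.085, adjusted p = 0.00897), and the call held in all 10 fits that left out 1 library and without 1 mpi libraries 1 and 3 together (adjusted p = 0.0262). With the compared groups alone Gpr17 did not pass. It was the 1 called gene among 14 of the precursor list (median -0.03), against 0.701% of all genes lower. In the list of 22 myelin genes none passed (median 0.05, and -0.02 without 1 mpi libraries 1 and 3). Mbp, the myelin basic protein, stood at 0.05 (adjusted p = 0.871).

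Vascular genes fell in small number. Cldn5, the tight-junction claudin of the blood-brain barrier, had 19.7, 17.2, 17.8, 13 and 20.4 at 3 mpi and 30.3, 26.2, 26.3, 28.1 and 31.5 at 1 mpi (log2 fold change -0.67, SE 0.14, adjusted p = 0.0131). Cd93, an endothelial lectin-like receptor, had 10.9, 7.53, 10.4, 6.70 and 11.4 at 3 mpi and 23.9, 13, 20.1, 16.3 and 16.1 at 1 mpi (-0.86, SE 0.16, adjusted p = 0.0105). Col4a1, a chain of the basement membrane collagen IV, had 36.4, 37.5, 36.6, 33.8 and 40.8 at 3 mpi and 83.2, 45.3, 66.1, 70.8 and 55.1 at 1 mpi (-0.75, SE 0.15, adjusted p = 0.0125). None of the 3 overlapped between groups, and each passed in all 10 fits that left out 1 library but not without 1 mpi libraries 1 and 3. Col4a2, the partner chain encoded next to Col4a1, stood at -0.49 (adjusted p = 0.0787). The endothelial list as a whole had a median of -0.05, with 1 of 16 members called lower, against 0.701% of all genes. Its summed level ran from 497.5 to 623.9 at 3 mpi and from 489.1 to 592.9 at 1 mpi. The list of collagens had a median of 0.03 (-0.08 without 1 mpi libraries 1 and 3), with 1 of 23 called lower, against the same share. Col1a1, a fibrillar collagen of meningeal fibroblasts, ranged from 3.22 to 20.9 at 3 mpi and from 10.3 to 35.4 at 1 mpi (-0.89, adjusted p = 0.252).

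**Figure D3:**
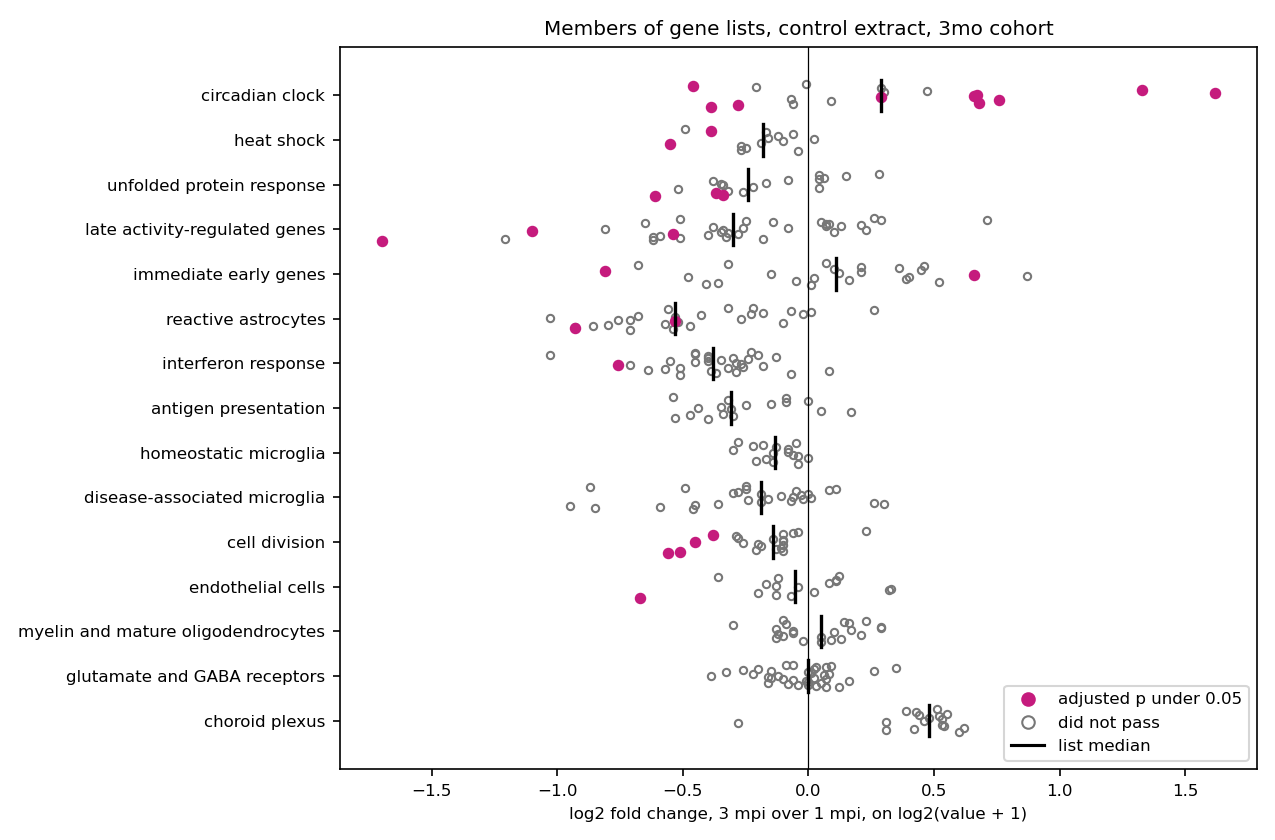
Log2 fold change, 3 mpi over 1 mpi, of every tested member of 15 gene lists, with filled points for members past an adjusted p of 0.05, open points for the others and a black line at each list's median. The clock list spans -0.46 to 1.62, the reactive astrocyte and interferon lists have medians of -0.53 and -0.38 with 2 and 1 members called, and the choroid plexus list has a median of 0.48 with no member called.

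Of the 12 genes that rose most, 6 lay outside the clock and the cold-inducible pair. Rtl3, a gene derived from a retrotransposon gag domain, on the X chromosome, had 3.39, 1.91, 3.55, 4.18 and 3.52 at 3 mpi and 0.388, 2.08, 0.0883, 0.903 and 0.514 at 1 mpi. Library 2 of 1 mpi was above 3 mpi library 2 and the rest did not overlap (log2 fold change 1.33, SE 0.22, adjusted p = 0.00291). Inmt, which N-methylates indolamines, had 4.96, 4.72, 4.66, 2.80 and 6.22 at 3 mpi and 2.22, 1.04, 1.63, 1.99 and 1.77 at 1 mpi, without overlap (1.04, SE 0.15, adjusted p = 5.59e-04). Ntf3, the neurotrophin NT-3 and the 1 called gene of the CA2 list, had 4.76, 4.70, 4.42, 4.31 and 4.68 at 3 mpi and 1.4, 3.64, 1.39, 2.79 and 2.12 at 1 mpi (0.82, SE 0.17, adjusted p = 0.0140). Within the 1 mpi group, libraries 1 and 3, the highest in Inhba, were the lowest in both Rtl3 and Ntf3, and library 2 was the highest in both.

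Wnt9a, a Wnt ligand, had 6.50, 5.45, 6.72, 8.21 and 7.11 at 3 mpi and 3.43, 3.37, 1.94, 4.88 and 4.13 at 1 mpi (log2 fold change 0.80, SE 0.19, adjusted p = 0.0343). Pla2g4e, which makes N-acyl phosphatidylethanolamines, had 4.85, 3.39, 3.61, 3.31 and 3.73 at 3 mpi and 1.31, 1.72, 1.52, 2.87 and 1.89 at 1 mpi (0.75, SE 0.18, adjusted p = 0.0332). Tspan4, a tetraspanin, had 12.1, 11.4, 13.3, 10.8 and 12.3 at 3 mpi and 7.17, 6.49, 5.23, 7.37 and 8.12 at 1 mpi (0.73, SE 0.11, adjusted p = 8.54e-04). None of the 3 overlapped between groups. Rtl3, Inmt and Tspan4 passed in all 10 fits that left out 1 library, Ntf3 in 8, Pla2g4e in 4 and Wnt9a in 3. Without 1 mpi libraries 1 and 3 Inmt and Tspan4 passed, and Rtl3 (1.03, adjusted p = 0.0698), Ntf3 (0.55, adjusted p = 0.223), Wnt9a (0.61, adjusted p = 0.274) and Pla2g4e (0.61, adjusted p = 0.268) did not.

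Under every one of the 25 alternatives 7 genes kept their call: Dbp, Ciart, Inmt, Tspan4, Mthfd1l, Gm32468 and Sat1, the last 3 named after their values were seen. Mthfd1l, a mitochondrial enzyme of folate metabolism, had 14.4, 16.3, 16.7, 15.5 and 13.6 at 3 mpi and 8.62, 10.3, 10.4, 9.01 and 9.09 at 1 mpi (log2 fold change 0.64, SE 0.081, adjusted p = 7.13e-05). Gm32468, annotated as a lincRNA on chromosome 10 (93084206 to 93093727), had 2.18, 1.35, 1.68, 2.08 and 1.98 at 3 mpi and 0.517, 0.317, 0.331, 0.281 and 0.555 at 1 mpi (1.02, SE 0.11, adjusted p = 8.73e-06). Sat1, which acetylates spermidine and spermine, had 38.2, 38.2, 34.7, 38.1 and 39.3 at 3 mpi and 48.7, 45.9, 48.3, 51.8 and 51.7 at 1 mpi (-0.38, SE 0.058, adjusted p = 0.00153). All 3 were apart in every library of the groups.

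The lists of neuronal machinery held no called gene (limma). No member passed among 36 glutamate and GABA receptor genes (median 0.00), 18 presynaptic release genes (median -0.02) and 25 potassium channel genes (median -0.03). The same held for 19 genes of tau and amyloid biology (median -0.01). With edgeR these 4 lists had 0 calls as well, while DESeq2 called 2 receptor genes (Gabra2 and Gabrb1), 4 potassium channel genes and Map2 of the tau and amyloid list lower. With limma, Gabra2 and Gabrb1 also passed without 1 mpi library 2 or 3 mpi library 4, and 1 to 2 potassium channel genes without 1 mpi library 2 or 5 or 3 mpi library 4. Gabra2 was called lower with the compared groups alone as well. Mapt, which encodes tau, had 466.2, 517.8, 474.3, 469.6 and 474.9 at 3 mpi and 481.0, 509.7, 506.9, 452.5 and 472.9 at 1 mpi, so the groups overlapped (log2 fold change -0.01, SE 0.044, adjusted p = 0.918). App, the amyloid precursor, had 1940.5 to 2105.9 at 3 mpi and 1844.9 to 1938.1 at 1 mpi without overlap, and its value of 0.08 did not pass (adjusted p = 0.388). Of 17 choroid plexus genes, 16 had positive values (median 0.48) and none passed, and their summed level ran from 3794.0 to 8214.2 at 3 mpi and from 2524.3 to 6500.4 at 1 mpi. Ttr, the transthyretin of that epithelium, stood at 0.60 (adjusted p = 0.801). The choroid plexus list had a median of 0.32 and 0 calls (limma) without 1 mpi libraries 1 and 3. With the mean level of that list as a covariate 340 genes passed, 296 of them among the 359. Of 20 glucocorticoid-induced genes, 15 had positive values (median 0.17). The 1 called higher, against 1.10% of all genes, was Per1, a clock gene as well, which did not pass without 1 mpi libraries 1 and 3.

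The interval from 1 to 3 mpi was also sampled with AD extract, in 5 libraries at 3 mpi and 6 at 1 mpi that share no library with the control groups. Both comparisons came from the same fit and share its estimate of the spread, so their calls are not independent. The labels do not say whether control and AD libraries of the same mpi were collected together or at the same hour. There 117 genes passed (0.586%), 44 higher and 73 lower. That count was 44, 48, 52 and 57 without libraries 2, 4, 1 and 5 of its 3 mpi group, 46 and 66 without libraries 4 and 6 of its 1 mpi group, and 178 and 190 without libraries 1 and 2 of that 1 mpi group. Of the 359 genes called after control extract, 335 (93.3%) had the same sign after AD extract, against 65.4% of all genes, and their median change in that direction was 0.14 there beside 0.31 after control extract. The 359 genes were picked by their control values, and picking favours large values there. The 2 medians are therefore not like for like and do not show a smaller change after AD extract. Both comparisons called 34 genes, all with the same direction, which is 9.47% of the control list and 29.1% of the AD list. They include Dbp, Ciart, Nr1d2, Per1, Arntl, Nfil3, Usp2, Cirbp, Inmt, Tspan4, Mthfd1l, Gm32468, Cldn5, Gpr17 and Dpysl3. Dbp averaged 58.6 ± 7.58 at 3 mpi and 19.9 ± 8.62 at 1 mpi after control extract (SD, n = 5 each), and 54.9 ± 6.96 at 3 mpi (n = 5) and 21.4 ± 3.70 at 1 mpi (n = 6) after AD extract. Gm32468 averaged 1.85 ± 0.340 and 0.400 ± 0.126 after control extract, and 2.03 ± 0.313 and 0.308 ± 0.141 after AD extract, at 3 and 1 mpi in each case. Of the 18 clock genes, 5 rose and 2 fell after AD extract, with a median of 0.30. Per2 rose there by 0.59 (SE 0.12, adjusted p = 0.0222).

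**Figure D4:**
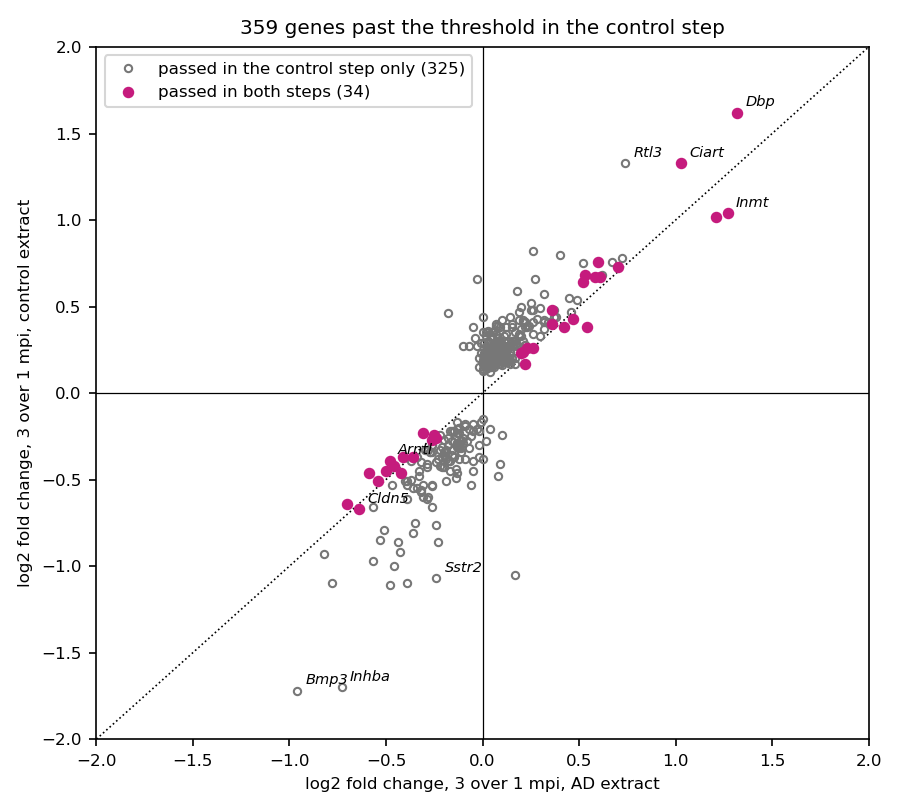
Log2 fold change, 3 over 1 mpi, after control extract (vertical) against that after AD extract (horizontal) for the 359 genes called after control extract, filled where both comparisons called them (34). The points lie mostly at lower left and upper right, 335 of 359 with the same sign, and the dotted line marks equal change.

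The difference between the control and the AD interval was tested as an interaction, and 0 of 19976 genes passed (0%, limma), with 1049 at an unadjusted p under 0.05. The quasi-likelihood test of edgeR called 0 with 995 at that level, and DESeq2 0 with 992. For Inhba the control value of -1.70 stood beside -0.73 after AD extract, with a difference of -0.97 (SE 0.62, adjusted p = 0.916). The Bmp3 values were -1.72 and -0.96, and the Nr4a1 values 0.66 and -0.03 (adjusted p of the difference 0.934 and 0.895). Fewer calls after AD extract therefore do not show a smaller change there.

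In the 12-month cohort the control interval gave 4 calls of 20084 genes (0.0199%), with 6 libraries at 3 mpi and 5 at 1 mpi. The count was 0 without any 1 of libraries 2, 3 and 6 at 3 mpi or 2 and 5 at 1 mpi, 1 without 3 mpi library 1 or 1 mpi library 4, and 10 without 3 mpi library 5, while edgeR called 9 and DESeq2 41. Dbp was 1 of them, at a log2 fold change of 0.51 (SE 0.093, adjusted p = 0.0244), with means of 45.8 ± 1.77 at 3 mpi and 32.5 ± 7.21 at 1 mpi (SD). The other 3 were Mfsd4a, a membrane transporter of the major facilitator family (0.36, adjusted p = 0.0244), Hectd2, a ubiquitin ligase (0.39, adjusted p = 0.0434), and 4930578M01Rik (0.60, adjusted p = 0.0244). All 4 were higher at 3 mpi, and in the younger cohort Mfsd4a stood at 0.26 (adjusted p = 0.169), Hectd2 at -0.01 (adjusted p = 0.981) and 4930578M01Rik at 0.12 (adjusted p = 0.578). Of the 357 genes called in the younger cohort that were tested here, 247 (69.2%) had the same sign, against 53.6% of all genes. Ciart stood at 0.26 (adjusted p = 0.489) and Arntl at 0.01 (adjusted p = 0.993). The tables of the cohorts were scaled separately, and the difference between them was not tested.

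The control groups at 5 mpi give the levels at a later time, as a description with no test. Dbp averaged 19.9 ± 8.62 at 1 mpi, 58.6 ± 7.58 at 3 mpi and 52.5 ± 4.57 at 5 mpi (SD, n = 5 each), and Cirbp 34.0 ± 5.69, 57.6 ± 2.33 and 58.8 ± 4.35. Hspa5 averaged 411.9 ± 65.5, 268.3 ± 21.8 and 234.9 ± 25.6 at the same times, and Mki67 2.55 ± 0.803, 1.36 ± 0.127 and 0.980 ± 0.0809. For these genes the 5 mpi libraries lay with the 3 mpi libraries or beyond them. Cldn5 averaged 28.5 ± 2.39 at 1 mpi, 17.6 ± 2.88 at 3 mpi and 29.3 ± 2.37 at 5 mpi, Arntl 36.7 ± 4.39, 27.8 ± 2.22 and 35.5 ± 1.65, and Gm32468 0.400 ± 0.126, 1.85 ± 0.340 and 0.497 ± 0.249. In these 3 genes the 3 mpi group stood apart, and the levels at 5 mpi were within the range of those at 1 mpi or overlapped it.

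**Figure D5:**
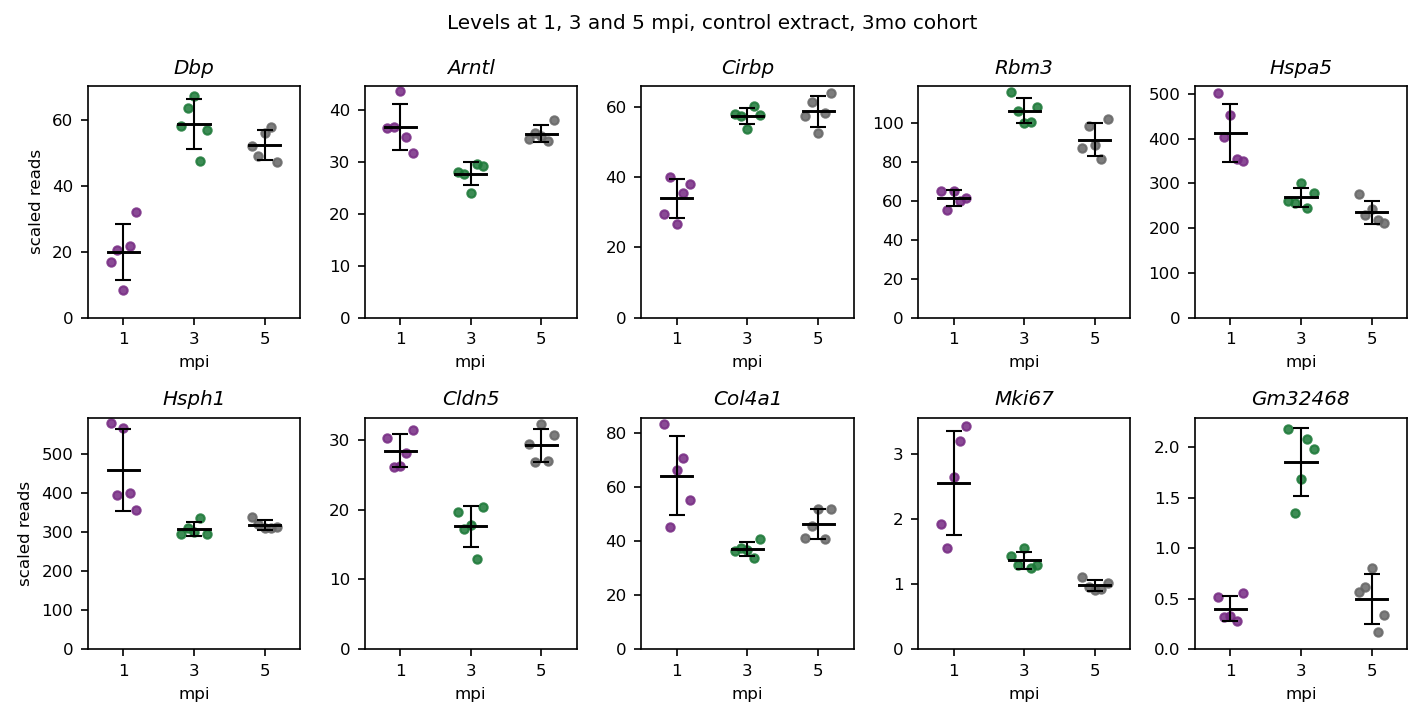
Levels of 10 genes in the control libraries of the younger cohort at 1, 3 and 5 mpi, in scaled reads on linear axes from 0, with 5 libraries at each time and bars for the mean and SD. Dbp, Cirbp and Rbm3 are low at 1 mpi and Hspa5, Hsph1 and Mki67 high, while Arntl, Cldn5 and Gm32468 differ at 3 mpi from both other times.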

How the data were processed

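Polyadenylated RNA of mouse hippocampus was sequenced, and 1 table per age cohort was deposited. The deposited signal values are reads per gene scaled per library by the authors; STAR, Picard and edgeR with build GRCm38 are listed in the submitters' processing notes, without versions. How reads were counted, on which strand and with which annotation is not given in the sources used here, so antisense and overlapping genes, and near-identical copies, cannot be separated. Whole reads were recovered from the deposited signal values in 100% of cases at a tolerance of 0.01 read, which gave depth, the total of reads per library, and 1 scaling factor per library. The precision of each level is read from the spread between libraries.

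The main test was limma 3.58.1 (R 4.3.3), limma-trend on log2(value + 1) with 1 mean for each of 6 groups over all 29 libraries of the 3mo table, genes kept by filterByExpr of edgeR 4.0.16, Benjamini-Hochberg adjustment over 19976 genes and a threshold of 0.05. The interaction of time and extract came from the same fit, and the 12mo table (37 libraries, 20084 genes) was fitted separately. As alternatives, the quasi-likelihood test of edgeR on the recovered reads called 316 genes, and DESeq2 1.42.0, other scalings and filters, a pseudocount of 0.1, robust moderation, a sex, choroid plexus or surrogate covariate (sva 3.50.0), a block on replicate number, a fit of the compared groups alone and fits that left out each library were run. Fits without the 2 libraries high in Inhba and without the 2 high in Xist were added after the data were seen. The limma step was tested on simulated data. Of 55421 gene entries, 96.6% matched a symbol of GENCODE vM21, used for coordinates and gene types; 27 date-like symbols were left as they are. No 2 libraries of a group were alike within sampling noise (lowest chi-square per degree of freedom 5.44).

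The comparison and the gene lists were chosen with earlier results of these data known. Genes were named by rule: of those called, the 12 that rose most and the 12 that fell most, given a mean log2 level of at least 1 and leaving out gene models and pseudogenes, with up to 4 members of each list by smallest p and a set of fixed genes. Promoters are RefSeq windows (GRCm38.p6) matched by symbol.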

Additional observations from a re-analysis of the deposited data

Results flagged for a closer look

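In 160 sets of 5 library values, 1 library was set apart from the other 4 of its group by Dixon's criterion in 15 cases, where chance gives about 1 in 20. At 3 mpi, library 2 stood apart in Usp2 (45.8 beside 52.8 to 55.5 scaled reads), Hspa8 (1675.6 beside 1503.5 to 1552.7) and Mapt (517.8 beside 466.2 to 474.9), and library 4 in Apoe (1286.0 beside 1535.6 to 1582.2) and Cd68 (5.69 beside 8.18 to 8.82). Library 1 of 3 mpi stood apart in Pla2g4e (4.85 beside 3.31 to 3.73) and library 3 in Sat1 (34.7 beside 38.1 to 39.3). At 1 mpi, library 1 was high in Sstr2 (46.7 beside 8.32 to 18), Pim1 (9.56 beside 3.13 to 4.08) and Adamts18 (6.51 beside 1.15 to 2.3), and library 5 in Nr4a1 (39.9 beside 19.2 to 24). Xist was 662.0 in 3 mpi library 3 and 686.3 in 1 mpi library 2 and at most 0.764 in the others, while Ddx3y was 0.191 and 0.543 in those libraries and at least 85.3 in the others.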

How the results depend on the processing

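The count of 359 genes was within 1.5 times under 10 of the 15 alternatives other than leaving out 1 library (290 to 441), including edgeR (316), but was 901 with DESeq2, 185 with upper-quartile scaling, 170 with no filter on low values, 33 with the compared groups alone, 30 without the pair of 1 mpi libraries high in Inhba, and 84 to 739 when 1 library was left out. The AD interval (117 genes) gave 349 with DESeq2, 18 with the compared groups alone and 44 to 190 with 1 library left out. The 12-month interval (4 genes) gave 9 with edgeR, 41 with DESeq2, 0 with the compared groups alone and 0 to 10 with 1 library left out. The replicate block gave 441 genes for the control interval, 69 for the AD interval and 2 for the 12-month interval. Same-numbered libraries did not clearly deviate together (correlations of -0.26 to 0.19 in the younger cohort and -0.15 to 0.36 in the 12-month cohort). In the younger cohort 1 of 5 numbers matched its own best. These values gave no sign of pairing by number, but they cannot exclude it. The difference between the extracts stayed at 0 calls in every alternative run.

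Genes whose sign turned were those near 0 or with 1 deviating library, apart from Ttr. Xist stood at -0.05 with edgeR, -0.06 with DESeq2, -1.11 without the Inhba pair and -1.62 to 2.04 with 1 library left out. Ddx3y stood at 0.02 with edgeR and 0.02 with DESeq2, 0.05 with the sex covariate, 0.06 with the surrogate variable, 0.78 without the Inhba pair, 0.04 without the Xist pair and -1.22 to 1.22 with 1 library left out. Arc stood at -0.01 with edgeR and -0.01 with DESeq2 (-0.10 to 0.44 with 1 library left out), and Fos at 0.00 with relative log expression and -0.02 with upper-quartile scaling (-0.19 to 0.22). Ttr stood at -0.11 with the choroid plexus covariate and at 0.41 to 0.77 with 1 library left out. That covariate is the mean level of a list that includes Ttr, so it removes part of Ttr's own value. Mapt stood at 0.01 without either pair (-0.04 to 0.01), Mbp at 0.00 without the Inhba pair, Per2 at -0.01 to 0.20, Apoe at -0.07 to 0.02 and Trem2 at -0.10 to 0.00. The cause of these shifts was not tested.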
